A study of Homo sapiens with 12 samples.

Results

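HES and HEY genes encode transcriptional repressors of the basic helix-loop-helix family that act downstream of the Notch receptors. The 7 genes HES1, HES2, HES4, HES5, HES6, HEY1 and HEYL were read on bead arrays through every probe that carried 1 of these symbols in the annotation of the array platform. They are 7 of 9922 genes named on these arrays. Their symbols were on 8 of 48802 probes, since HEY1 had a brighter and a dimmer probe, and all 8 were among the 13830 probes that passed the detection filter (detected, with a detection p under 0.01, on 3 or more arrays). The genes were selected by symbol, but they were chosen by their measured values too, because the changes with the siRNA against IPMK were known when the list was made. For these genes the changes with that siRNA are therefore given as a description, and tests of them are reported only for mitomycin C and for the comparison between experiments.

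The arrays measured cytoplasmic RNA of Cal51, a human breast carcinoma cell line, released from the cells with digitonin, a detergent that opens the plasma membrane. All cells were transfected with a siRNA and collected 72 h later. They carried a control siRNA or siIPMK, a siRNA against the inositol polyphosphate multikinase IPMK, each without or with mitomycin C (MMC), a DNA crosslinking drug, during the last 24 h. The 4 groups had 3 arrays each, labelled experiment 1, 2 and 3, and nothing further was given on how the experiments differed, so p-values measure only the spread between these arrays. No probe was named IPMK in the annotation used here, so the depletion itself was not checked.

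When a Notch receptor binds a DLL or JAG ligand on a neighbouring cell, the protease ADAM10 and the gamma-secretase complex cut it, and the freed intracellular domain joins the DNA-binding protein RBPJ and a Mastermind coactivator in the nucleus. HES1, HES4, HES5, HEY1, HEY2 and HEYL are commonly used as readouts of this step. The HES products among them recruit Groucho/TLE corepressors to N-box and E-box sites, often in their own promoters as well. HES6 is known to antagonise HES1 and is not itself a typical Notch readout, and HES1 is also switched on by growth factor signals.

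The promoters of 4 of the 7 genes held the core sequence that RBPJ binds, GTGGGAA, and these windows are shown because the same genes differed in their changes in the arrays. The search covered 250 bases before to 50 bases after the start of each gene, on both strands, in RefSeq's GRCh38.p14 sequences. Each line gives 60 bases of the gene's own strand with the match in capitals, in the order HES1 at chr3:194136038-194136097 (plus strand), HES4 at chr1:1000140-1000199 (minus strand), HES5 at chr1:2530310-2530369 (minus strand) and HEYL at chr1:39639787-39639846 (minus strand).
HES1: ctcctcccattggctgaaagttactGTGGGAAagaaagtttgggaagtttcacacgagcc
HES4: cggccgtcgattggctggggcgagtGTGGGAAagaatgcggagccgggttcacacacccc
HES5: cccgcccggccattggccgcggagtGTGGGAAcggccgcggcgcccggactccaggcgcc
HEYL: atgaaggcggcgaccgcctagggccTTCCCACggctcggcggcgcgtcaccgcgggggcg

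The match began at position -85 in HES1, -77 in HES4 and -81 in HES5, counted from the annotated start. In HEYL the match lay on the other strand at -178, where it reads TTCCCAC, and HES5 had another such match at -224. These letters occurred in 1715 of 27305 RefSeq promoter windows of the same length, or 6.28%. They were not in the windows of HES2 and HES6, and HEY1 was not in the promoter table. The N-box CACNAG occurred 4 times in the HES1 window and once in the HES2 window, against 38% of all windows with a match. The E-box CACGTG was in none of the 6 windows and in 7.43% of all windows. A match is a run of letters and was not tested as a binding site.

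Between 12122 and 12687 probes were detected on the 6 control siRNA arrays and between 13067 and 13458 on the 6 siIPMK arrays. Whether this difference bears on any change with siIPMK was not tested. Of 6 epithelial markers, the 4 tested (KRT8, KRT18, KRT19 and EPCAM) were detected on all 12 arrays. Their summed intensity was 10455 to 12175 on control siRNA arrays and 16342 to 20619 on siIPMK arrays. KRT8, KRT19 and EPCAM rose with siIPMK without and with MMC (limma), with a median change of the 4 of 0.63 and 0.56. KRT18 did not pass, and its normalized log2 signal was lower with siIPMK in every experiment. Without MMC it was 8.99, 8.76 and 8.72 with control siRNA and 8.82, 8.22 and 8.34 with siIPMK. With MMC it was 8.85, 8.56 and 8.65 against 8.37, 8.16 and 8.40. The part of these differences in the members' changes was not tested. Of 8 fibroblast and endothelial markers, COL1A2 and PECAM1 were tested, and neither passed with siIPMK. COL1A2 was detected on all 12 arrays, at intensities of 987 to 1640, and PECAM1 on all but control siRNA with MMC of experiment 3. No leukocyte marker of the list was in the annotation. A principal component that held 66.5% of the variance between arrays put the control siRNA arrays at -36.4 to -27.6 and 4 siIPMK arrays at 38.9 to 46.4. The siIPMK arrays of experiment 1 stood apart from these, at 7.90 and 14.2, so the members' changes with siIPMK are also given without them. The member probes were read on 8 to 40 beads per array, and the standard error over beads was between 1.03% and 12.4% of the intensity.

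**Figure D1:**
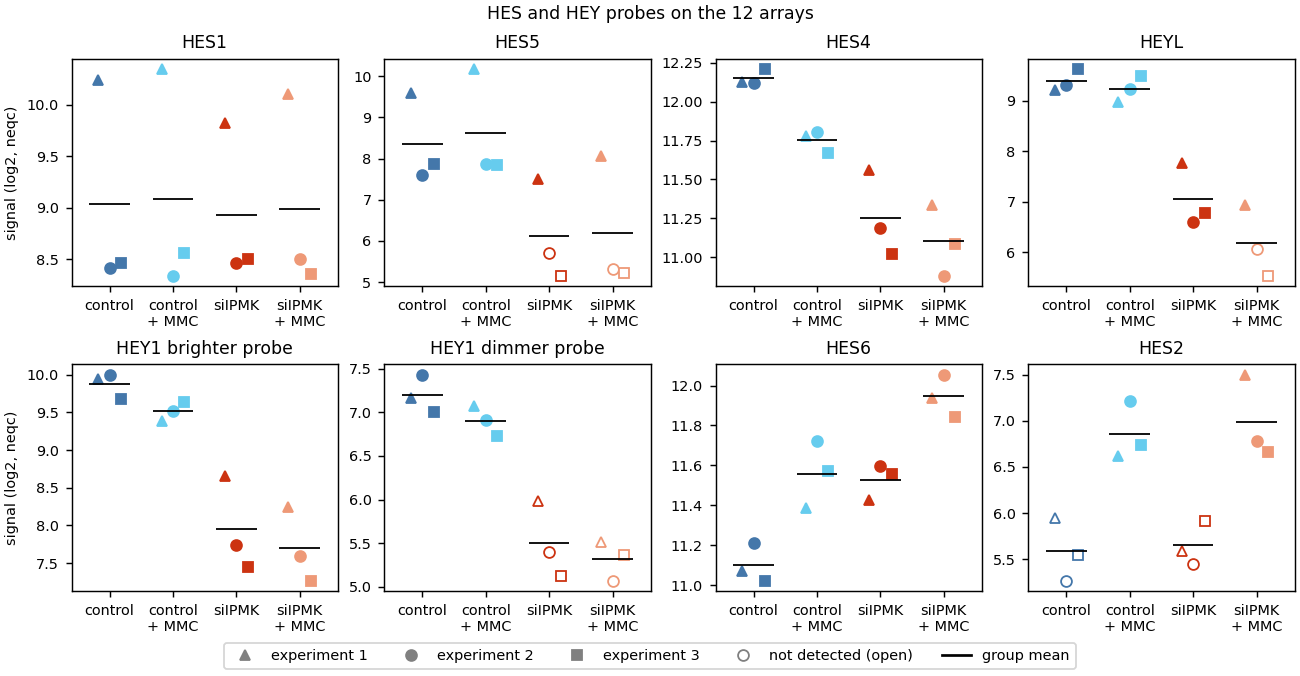
Normalized log2 signal of each member probe on the 12 arrays, with an axis of its own in each panel, by group of siRNA and MMC, with a marker for each experiment, open markers where the probe was not detected and a line at each group mean. HES1 and HES5 split by experiment, with experiment 1 highest in every group. HEYL, HEY1 and HES4 split by siRNA, and HES5 did so as well within each experiment.

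HES5, a direct Notch target that keeps neural progenitors undifferentiated, differed with both siIPMK and the experiment. Its intensity with control siRNA was 815, 281 and 291 in experiments 1, 2 and 3, and with control siRNA and MMC it was 978, 322 and 301. With siIPMK it was 258, 133 and 105, and with siIPMK and MMC it was 366, 111 and 104. In each experiment both siIPMK arrays were below both control siRNA arrays, and experiment 1 was the highest of its group in all 4 groups. With siIPMK the probe was detected on the experiment 1 array alone, that is on 1 of 3 arrays without MMC and 1 of 3 with MMC, against 3 of 3 in both control groups. The untreated groups did not overlap, and the MMC groups did, because the siIPMK array of experiment 1 read above the control siRNA arrays of experiments 2 and 3.

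Intensities here are as deposited, and changes are on a log2 scale after background correction and quantile normalization across the arrays, with standard errors from 1 fit over all 12 arrays. On this scale the differences of HES5 between siIPMK and control siRNA were -2.09, -1.90 and -2.72 in the 3 experiments without MMC, and the mean change was -2.24 ± 0.81 (SE of the fit, n = 3). With MMC the differences were -2.11, -2.55 and -2.64, with a mean of -2.44 ± 0.81. The spread within groups was wide, with a standard deviation of 1.08 with control siRNA and 1.22 with siIPMK, and it narrowed when experiment was a term of the model, to a standard error of 0.20 for both changes. The values for experiments 2 and 3 are fitted against siIPMK arrays on which the probe was not detected. With those readings raised to the lowest signal of any detected probe on the same array, HES5 was at least 3.20-fold lower with siIPMK without MMC and at least 3.46-fold lower with MMC. Without the siIPMK arrays of experiment 1 the mean changes were -2.92 and -3.37, in fits that kept the high control siRNA arrays of that experiment. They are therefore no measure of the fall within experiments 2 and 3, which is given above. In the authors' processed values they were -1.16 and -1.29.

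HES1, the most widely used Notch readout, differed with the experiment, while its mean changes with siIPMK and MMC lay between -0.11 and 0.06. Its intensity in experiments 1, 2 and 3 was 1259, 429 and 402 with control siRNA, and 1095, 417 and 447 with control siRNA and MMC. It was 994, 462 and 485 with siIPMK, and 1265, 461 and 369 with siIPMK and MMC. All 4 arrays of experiment 1 lay above the other 8, whatever the siRNA or treatment, and it was detected on all 12 arrays. The change with siIPMK was -0.11 ± 0.60 without MMC and -0.09 ± 0.60 with MMC, and with experiment as a term its standard error was 0.13. The sign of these small values turned with median scaling, to 0.04 and 0.06. Without the siIPMK arrays of experiment 1 they were -0.56 and -0.65, in fits that kept the high control siRNA arrays of that experiment.

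The experiments were then compared across all probes, in a model with terms for group and experiment that was added after the intensities had been seen. Experiment 1 was set against the mean of experiments 2 and 3, over all 4 groups. Its 4 arrays come from a single experiment and were fitted as separate readings, so the p-values describe arrays and not how experiments vary. The high values of HES1 and HES5 in experiment 1 had been seen before, so their p-values are no independent test. HES1 was higher in experiment 1 by 1.68 ± 0.10 on the log2 scale, or 3.20-fold (limma adjusted p = 4.42e-07, by Benjamini-Hochberg over all probes tested, with calls under 0.05), with differences of 1.81, 1.89, 1.34 and 1.67 in the 4 groups. HES5 was higher by 2.25 ± 0.15, or 4.77-fold (limma adjusted p = 2.28e-06), with differences of 1.85, 2.31, 2.07 and 2.79, the last pair against siIPMK arrays on which it was not detected. With those readings raised to the lowest detected signal of their arrays, HES5 was at least 3.49-fold higher. Among 13830 probes, HES1 ranked 5 and HES5 ranked 6 by p.

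The other 6 member probes were not called between experiments. HEY1 differed by 0.45 ± 0.16 at its brighter probe (limma adjusted p = 0.110) and by 0.30 ± 0.16 at its dimmer probe, HEYL by 0.40 ± 0.23, HES2 by 0.22 ± 0.20, HES4 by 0.20 ± 0.09 and HES6 by -0.12 ± 0.07. HEYL and the brighter HEY1 probe were higher in experiment 1 by 1.09 and 1.06 with siIPMK without MMC, whereas with untreated control siRNA their differences were -0.24 and 0.10. This difference between the siRNAs was not tested. The count of 2 called members of 8 stands beside 2.83% of all probes called higher and 3.04% called lower in experiment 1. This comparison was added after HES1 and HES5 had been seen to be high there, so nothing is read from the count. With median scaling, 36.1% of the called probes were higher in experiment 1, against 48.2% with quantile normalization. Without the siIPMK arrays of experiment 1, HES1 differed by 1.85 and HES5 by 2.08, and both were called. In the 6 control siRNA arrays alone HEYL fell by 0.32 in experiment 1 (limma adjusted p = 0.0345). The brighter HEY1 probe passed without the experiment 1 array of control siRNA with MMC, at 0.66 (limma adjusted p = 0.0237).

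**Figure D2:**
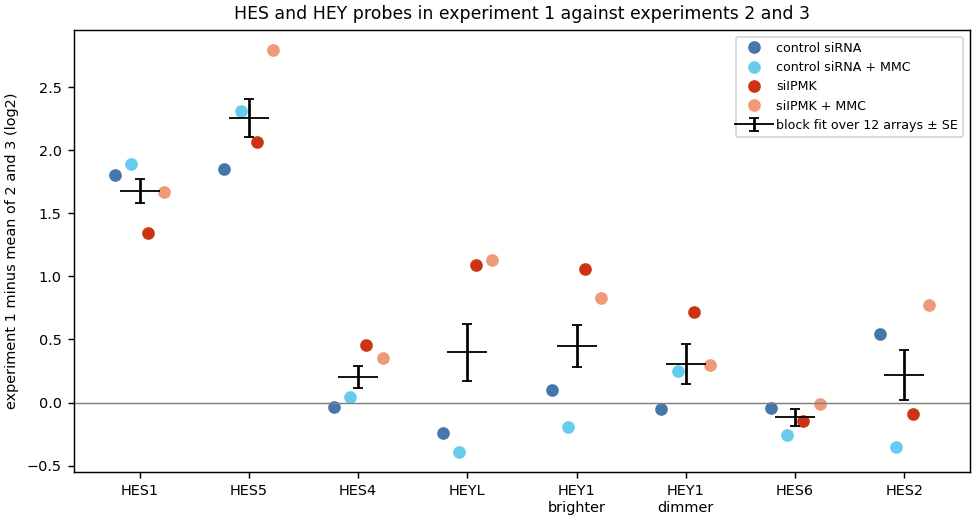
Difference between experiment 1 and the mean of experiments 2 and 3 for the 8 member probes (log2, horizontal line for the fit over all groups with bars for its standard error), with the difference within each of the 4 groups as points. HES1 at 1.68 and HES5 at 2.25 stand apart from the other probes, which lie between -0.12 and 0.45.

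HEYL, a HEY repressor and Notch target known from smooth muscle, was read at 645, 737 and 822 with control siRNA and at 469, 700 and 778 with control siRNA and MMC. With siIPMK it was at 296, 183 and 197, and with siIPMK and MMC at 210, 146 and 116. The order from high to low was control siRNA, control siRNA with MMC, siIPMK, and siIPMK with MMC. The siIPMK arrays lay below all control siRNA arrays, and the neighbouring groups of the same siRNA overlapped on the normalized scale. The probe was detected on 3 of 3 arrays in 3 groups and on 1 of 3 with siIPMK and MMC. The change with siIPMK was -2.34 ± 0.32 without MMC, a 5.06-fold lower level, and -3.05 ± 0.32 with MMC. In these bulk cultures fewer cells that express a gene and less RNA per cell cannot be told apart. Since only cytoplasmic RNA released with digitonin was measured, a smaller share of the RNA in that fraction cannot be told apart from these either.

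HEYL changed least with siIPMK in experiment 1. The differences by experiment were -1.45, -2.72 and -2.85 without MMC, and -2.03, -3.16 and -3.94 with MMC. With MMC the last pair of values is fitted against siIPMK arrays on which HEYL was not detected, and with those readings raised to the lowest detected signal HEYL was at least 6.80-fold lower. Without the siIPMK arrays of experiment 1 the means were -2.70 and -3.42. The authors' processed values gave -1.54 and -1.77.

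HEY1, a repressor with known roles in vessels and bone, was lower with siIPMK at both of its probes. The brighter probe read 1019, 1137 and 857 with control siRNA and 599, 828 and 866 with control siRNA and MMC. It read 487, 312 and 272 with siIPMK, and 409, 281 and 213 with siIPMK and MMC. The siIPMK arrays were again all below the control siRNA arrays, and the siIPMK array of experiment 1 was the highest of its group. The change was -1.92 ± 0.27 without MMC (3.80-fold lower) and -1.82 ± 0.27 with MMC (3.52-fold lower), and -2.28 and -2.09 without the siIPMK arrays of experiment 1.

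The dimmer HEY1 probe read 206, 256 and 191 with control siRNA and 179, 209 and 179 with control siRNA and MMC. It was not detected on any siIPMK array, with readings from 100.46 to 136, so it gives only a bound. The bound sets the mean of the detected group against the higher of the probe's own signal and the lowest signal of any detected probe on each array of the other group. HEY1 at this probe was at least 1.95-fold lower with siIPMK without MMC and at least 1.59-fold lower with MMC. Both probes thus read lower with siIPMK. The fitted changes of the dimmer probe were -1.94 and -1.69 without the siIPMK arrays of experiment 1, and it passed the detection filter through the control siRNA arrays alone.

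HES4, a repressor found in humans and not in mice, read 4682, 4839 and 4798 with control siRNA and 2976, 3748 and 3361 with control siRNA and MMC. With siIPMK it read 3125, 2543 and 2347, and with siIPMK and MMC 2801, 2063 and 1969.8. On the normalized scale the order was control siRNA, control siRNA with MMC, siIPMK, and siIPMK with MMC, and only the last pair of neighbours overlapped. The change with siIPMK was -0.90 ± 0.14 without MMC (1.86-fold lower) and -0.65 ± 0.14 with MMC (1.57-fold lower). Without the siIPMK arrays of experiment 1 these were -1.05 and -0.77.

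HES6 went the other way. It read 2213, 2612 and 2082 with control siRNA, 2241, 3546 and 3135 with control siRNA and MMC, 2860.4, 3284 and 3307 with siIPMK, and 4260.4, 4401 and 3283 with siIPMK and MMC. The normalized mean was lowest with control siRNA at 11.10 ± 0.10 (SD, n = 3) and highest with siIPMK and MMC at 11.95 ± 0.10. The groups between them, siIPMK at 11.53 ± 0.09 and control siRNA with MMC at 11.56 ± 0.17, did not differ beyond their spread. The change with siIPMK was 0.43 ± 0.11 without MMC and 0.39 ± 0.11 with MMC, and 0.48 and 0.39 without the siIPMK arrays of experiment 1.

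HES2, a less studied HES repressor, was detected only on arrays from MMC-treated cells. It read 129, 119 and 115 with control siRNA and 120.2, 121 and 139 with siIPMK, and none of these 6 arrays detected it. With MMC it read 152, 239 and 179 with control siRNA and 274, 194 and 168 with siIPMK, and all 6 arrays detected it. Between the siRNAs its values overlapped both without and with MMC. With MMC its change with siIPMK was 0.13 ± 0.26, and -0.13 without the siIPMK arrays of experiment 1.

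Over the 8 member probes, siIPMK without MMC gave 1 rise and 5 falls at the threshold used for all probes. The rise was HES6, the falls were HES4, HES5, HEYL and both HEY1 probes, and the median change was -1.30. With MMC the same probes were past the threshold, with a median of -1.12. Of all probes, 19.7% were called as rises and 19.2% as falls without MMC, and 19.7% and 20.3% with MMC. The members were chosen with these comparisons in view, so their counts are a description and nothing is read from them. HES5 and HES6 were near the threshold, and the counts were lower without some single arrays. Median scaling moved the median of all probes from -0.01 to 0.12 without MMC and to 0.12 with MMC, and raised the share of rises among called probes from 50.5% to 70.1% and from 49.2% to 69.0%. Under it the changes of these 6 probes kept their directions, with HEYL at -2.19 and -2.86 and HES4 at -0.86 and -0.56.

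**Figure D3:**
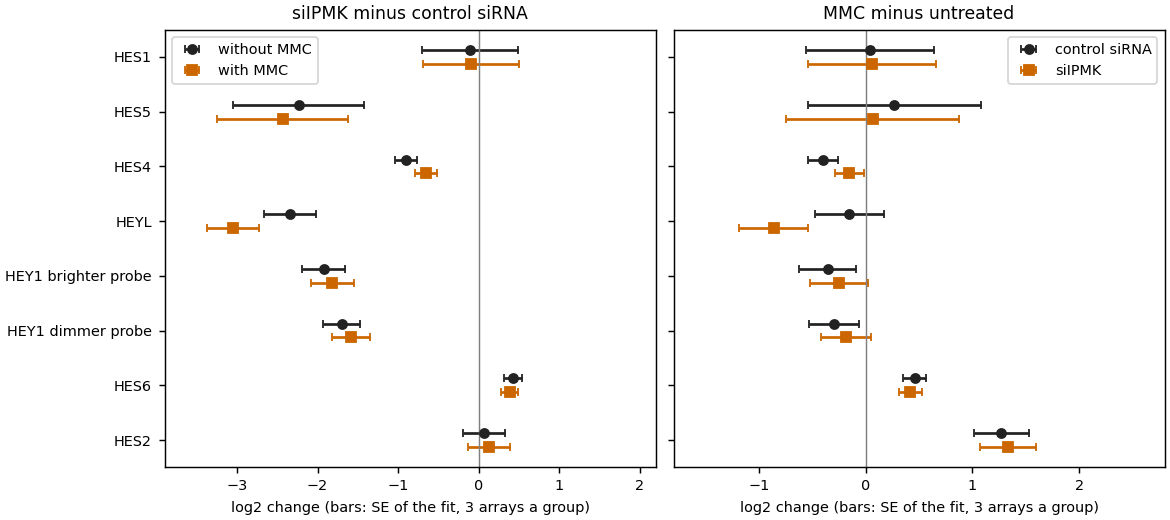
Log2 change of the 8 member probes with siIPMK (without and with MMC) and with MMC (under control siRNA and siIPMK), with bars for the standard error of the fit over 3 arrays per group. HEYL, HES5 and the brighter HEY1 probe lie below -1.5 with siIPMK. The points of the dimmer HEY1 probe with siIPMK and of HES2 with MMC are fitted values against groups in which the probe was not detected, and those of HES5 with siIPMK and HEYL with siIPMK and MMC are partly so.

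With MMC, HES2 rose under both siRNAs and HES6 rose under control siRNA. HES2 rose at least 1.24-fold with control siRNA (limma adjusted p = 0.0168) and at least 1.68-fold with siIPMK (limma adjusted p = 0.0467), higher in 3 of 3 experiments under each siRNA. HES2 passed the detection filter only through the MMC arrays, and so had to differ. In the fit with no detection filter its limma adjusted p was 0.00931 and 0.0306. HES6 rose by 0.46 ± 0.11 with control siRNA (limma adjusted p = 0.045), again in 3 of 3 experiments. With siIPMK it was higher by 0.42 ± 0.11 in 3 of 3 experiments, which did not pass (limma adjusted p = 0.211). The untreated and MMC groups of HES2 and HES6 did not overlap on the normalized scale under either siRNA.

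These calls were close to the threshold. The HES2 rise with control siRNA was lost without 1 of 4 arrays: control siRNA of experiment 2 (limma adjusted p = 0.109) or 3 (0.0659), and control siRNA with MMC of experiment 2 (0.119) or 3 (0.0503). The HES2 rise with siIPMK was lost in 11 of 12 such fits, at adjusted p values up to 0.211, and without both siIPMK arrays of experiment 1 (0.236). The HES6 rise was lost in 9 of 12, at up to 0.256. In the authors' processed values HES2 rose by 0.42 with control siRNA (limma adjusted p = 0.0594) and by 0.52 with siIPMK (0.0444).

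The untreated and MMC arrays of the same siRNA and experiment deviated together, so MMC was also tested within these pairs. Under siIPMK, arrays of experiments 2 and 3 deviated together across numbers too (r = 0.34 and 0.40), against 0.52 and 0.33 within their own pairs. A pairing by number was thus not shown for them. In the paired fit HES2 had an adjusted p of 0.000856 with control siRNA and 0.00158 with siIPMK (limma). HES2 passed the detection filter only through the MMC arrays, so these values are not read as support. HES6 had 0.000483 and 0.00371 (limma adjusted p). HES4, at -0.40 ± 0.14 with control siRNA, did not pass in the unpaired fit (limma adjusted p = 0.232) and fell in the paired fit (0.00319). The brighter HEY1 probe, at -0.36 ± 0.27 with control siRNA, had 0.728 and 0.0441 in the unpaired and paired fits, and HEYL, at -0.86 ± 0.32 with siIPMK, had 0.694 and 0.000245 (limma adjusted p). HEYL was lower with MMC in 3 of 3 siIPMK pairs, with differences of -0.84, -0.52 and -1.24 and with detection on 3 of 3 and 1 of 3 arrays. With the undetected readings raised to the lowest detected signal the mean difference was -0.58.

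In the unpaired fit, MMC under control siRNA gave 2 rises and 0 falls among the 8 member probes, with a median of -0.06, against 1.68% rises, 0.0578% falls and a median of -0.02 over all probes. Under siIPMK it gave 1 rise and 0 falls, with a median of -0.05, against 0.296%, 0.0145% and -0.01. At an unadjusted p under 0.05, 1 further probe, HES4, was lower under control siRNA, against 4.16% of all probes. Under siIPMK HEYL was lower and HES6 higher, against 2.37% lower and 3.05% higher of all probes. In the paired fit the members called were 4 under control siRNA, with 5.43% of all probes rising and 3.5% falling. Under siIPMK they were 3, with 1.64% rising and 0.832% falling. HES2 is among the calls under each siRNA in both fits, though it passed the detection filter only through the MMC arrays. HES1 and HES5 did not pass in either fit, with changes of 0.04 ± 0.60 and 0.27 ± 0.81 under control siRNA and 0.06 ± 0.60 and 0.07 ± 0.81 under siIPMK. The MMC comparisons share their untreated arrays with the siIPMK comparison without MMC.

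The MMC change was not shown to differ between the siRNAs for any member. The differences (siIPMK minus control siRNA) ran from -0.71 ± 0.46 for HEYL to 0.25 ± 0.19 for HES4, with 0 of 8 probes called (limma adjusted p = 1 for all 8), 0 at an unadjusted p under 0.05, and 0.00723% of all probes called. In the paired fit the HEYL difference had a limma adjusted p of 0.0848, with -0.59, -0.44 and -1.10 in the 3 experiments.

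HEY2, a further HEY repressor that was not among the 7, had values close in direction to HEY1. It read 1047, 1206 and 1196 with control siRNA, 620.3, 852 and 957 with control siRNA and MMC, 679, 611 and 680.3 with siIPMK, and 578, 540.2 and 502 with siIPMK and MMC. It fell by 1.01 ± 0.12 with siIPMK without MMC (limma adjusted p = 5.5e-05) and fell by 0.76 ± 0.12 with MMC (0.000438). The list that held HEY2 was chosen with earlier results of these data known, so these p-values are no independent test. BHLHE40, a related repressor of the circadian clock, did not pass with siIPMK and was 0.52 ± 0.10 higher in experiment 1 (limma adjusted p = 0.0173).

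Further Notch pathway genes were taken from 6 lists of 69 genes in all, of which 49 were tested. The lists were chosen with earlier results of these data known. Apart from NOTCH1, NOTCH3, JAG1 and RBPJ, the genes named below were picked by their low p-values within a list. Their p-values with siIPMK are therefore no independent test. With siIPMK, 11 rose and 5 fell without MMC (median 0.23), and 14 rose and 3 fell with MMC (median 0.20), against medians over all probes of -0.01 in both. Of all probes, 19.7% rose and 19.2% fell without MMC, and 19.7% and 20.3% with MMC. With MMC, 2 rose under control siRNA and 1 under siIPMK, against 1.68% and 0.296% of all probes. The MMC change was called as different between the siRNAs for 0, against 0.00723% of all probes. At an unadjusted p under 0.05 that difference was negative for 2 and positive for 0, against 2.14% and 1.25% of all probes. Between experiments 0 were higher and 2 lower in experiment 1, against 2.83% and 3.04% of all probes. The called genes were the corepressor SPEN, which fell by 0.50 ± 0.10 (limma adjusted p = 0.0186), and CCND1 (cyclin D1), which fell by 0.31 ± 0.07 (0.0267). In experiments 1, 2 and 3 without MMC, normalized SPEN was 9.25, 9.40 and 9.51 with control siRNA and 9.13, 10.01 and 9.72 with siIPMK. CCND1 was 13.43, 13.71 and 13.52 with control siRNA and 13.95, 14.48 and 14.52 with siIPMK. How far these falls lay in the siIPMK arrays was not tested. No tested receptor, ligand, protease or nuclear complex gene of the lists passed between experiments.

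Among 4 receptors and ligands tested, NOTCH3 alone passed with siIPMK. It read 452, 485 and 388 with control siRNA and 349.5, 349.5 and 262 with siIPMK, and 366, 507 and 436 against 322, 297 and 254 with MMC. It fell by 0.75 ± 0.16 without MMC (limma adjusted p = 0.0028) and by 0.87 ± 0.16 with MMC (0.00114). NOTCH1 differed by 0.58 ± 0.23 without MMC (limma adjusted p = 0.0599) and by 0.00 with MMC, and JAG1, a ligand, by 0.27 and 0.26, which did not pass.

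Among genes for cleavage and glycosylation, PSENEN, a gamma-secretase subunit, fell by 0.80 ± 0.20 without MMC (limma adjusted p = 0.00597) and by 0.76 ± 0.20 with MMC (0.00787). It was the 1 fall among the 12 tested, beside 0 rises without MMC and 4 with MMC (median 0.16 and 0.36). Of the other subunit genes, NCSTN and APH1B read higher with siIPMK in experiments 2 and 3. PSEN2 and APH1A read lower without MMC in every experiment. ADAM10 rose by 0.54 ± 0.17 with MMC (limma adjusted p = 0.0206). RBPJ differed by 0.18 ± 0.18 without MMC, which did not pass. Of the nuclear complex, the cyclin C gene CCNC rose by 0.69 ± 0.14 and its kinase CDK8, which marks the Notch intracellular domain for turnover, by 0.59 ± 0.15 without MMC (limma adjusted p = 0.00204 and 0.00573).

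FBXW7, the ubiquitin ligase subunit that then removes the Notch intracellular domain, rose with siIPMK by 0.98 ± 0.13 without MMC (limma adjusted p = 9.6e-05) and by 0.40 ± 0.13 with MMC (0.0251). It also rose with MMC under control siRNA by 0.87 ± 0.13 (limma adjusted p = 0.00142). The ubiquitin ligase NEDD4 rose by 0.92 ± 0.27 and 0.80 ± 0.27 with siIPMK. Of other genes listed as Notch targets, MYC rose by 0.86 ± 0.15 and 1.18 ± 0.15 and CDKN1A by 1.92 ± 0.15 and 0.89 ± 0.15, while BIRC5 fell by 2.01 ± 0.28 and fell by 2.10 ± 0.28. These targets thus moved in both directions, and each is also controlled by other pathways.

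**Figure D4:**
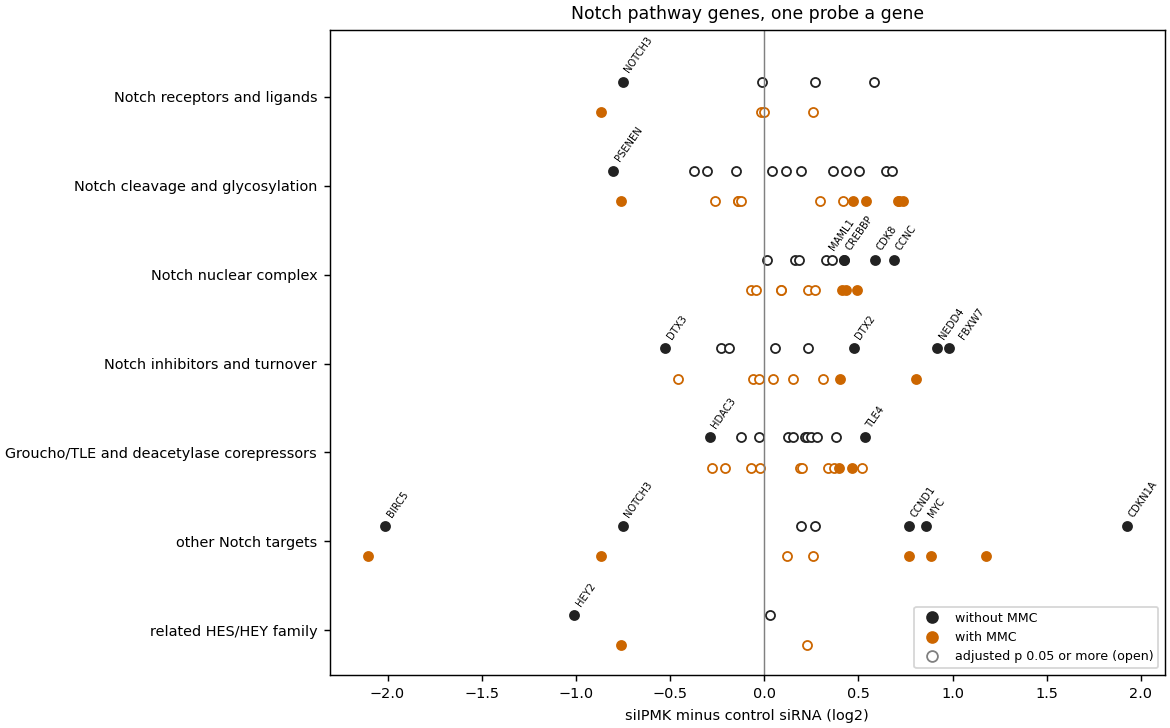
Log2 change with siIPMK of the tested Notch pathway genes by list, 1 probe per gene, without MMC (dark) and with MMC (orange), filled where the adjusted p was under 0.05. Called genes of the comparison without MMC are named, and NOTCH3 at -0.75, PSENEN at -0.80 and HEY2 at -1.01 lie on the left while most filled points of the nuclear complex and turnover lists lie on the right.

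For HES5 and HEYL the genes with the most similar pattern over the 12 arrays were sought among 9402 genes, by the root mean square difference of log2 deviations from each gene's mean. HEYL was closest to MIS18A (0.30), TK1 (0.35), SEM1 (0.38), SLC25A15 (0.41) and UBE2J1 (0.43), against a median of 1.46 over all genes. HES5 was less close to any gene, with BGN (0.76), ACBD7 (0.76), TK1 (0.78), TPD52 (0.80) and TCEA2 (0.82) against a median of 1.62. HES1 and HES5 differed by 1.18 by this measure. HES5 was not detected on 4 of the arrays and HEYL not on 2, so part of each likeness rests on background readings.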

How the data were processed

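Per the file headers, the deposited bead table gives a mean intensity, a detection p-value and a count of beads for each probe and array, and the authors' second table gives processed values on a log2-like scale, made with lumi (version not given), per the submitters' processing notes. Whether a background had been subtracted from the intensities is not given in the sources used here. Probes were named from the platform annotation with symbols updated through RefSeq, and 12850 had 1 symbol.

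In R 4.3.3, limma 3.58.1 (neqc, offset 16) was used for background correction and quantile normalization of the 12 arrays, on a log2 scale. Tests covered the 13830 probes detected on 3 or more arrays, where detected means a detection p under 0.01. A linear model of 4 group means over all 12 arrays with moderated variances gave every change, and a call means an adjusted p (Benjamini-Hochberg, over all probes) under 0.05. The script was tested on simulated data. Arrays carry no read depth, and their number limits the precision.

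The members and lists were chosen with earlier results of these data known. Named genes are the members, their 5 most similar genes for HES5 and HEYL, and pathway genes of the lists. The leading genes between experiments were named after their values were seen. Untreated and MMC arrays with the same siRNA and experiment number deviated together in all 6 pairs (lowest r = 0.18), so paired values stand beside the MMC results. Under siIPMK, arrays of experiments 2 and 3 also deviated together across numbers. Across siRNAs the r of same-numbered arrays ran from -0.02 to 0.19. Alternatives were the offset, median scaling, the detection filter, the authors' values, 1 probe per gene, experiment as a block and leaving out arrays.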

Additional observations from a re-analysis of the deposited data

How the results depend on the processing

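HES1 and HES5 kept their direction and their calls between experiments under every alternative in which they were tested, and HES5 was not among the probes detected on all 12 arrays. Leaving out 1 array at a time moved HES1 between 1.61 and 1.79 and HES5 between 2.07 and 2.39. The counts of called probes moved more. For MMC under control siRNA, 241 probes were called, and 158 with detection on all 12 arrays, 363 with a replicate block for experiment, 1235 with the block within siRNA, 579 without both siIPMK arrays of experiment 1, and 155 to 344 without 1 array. For MMC under siIPMK the count was 43, and 17 with median scaling, 18 with detection on all 12 arrays, 342 with the block within siRNA, 18 without both siIPMK arrays of experiment 1, and 15 to 37 without 1 array. For the difference of the MMC changes it was 1, and 0 with median scaling or with 1 probe per gene, 2 in the authors' values, 59 with the block within siRNA, 17 without both siIPMK arrays of experiment 1, and 0 to 8 without 1 array. Between experiments it was 813, and 349 with median scaling, 321 with no detection filter, 1409 without both siIPMK arrays of experiment 1, 153 with pairs of arrays as a random block, 1333 in the control siRNA arrays only, and 148 to 1432 without 1 array. For siIPMK the counts were 5381 without MMC and 5532 with MMC, and 3533 to 6203 and 3774 to 6551 without 1 array. The lowest was 3533, without siIPMK of experiment 2. The replicate block changed no call of a member with siIPMK. With siIPMK without MMC, HES5 was short of the threshold in the authors' values, with no detection filter, and without control siRNA of experiment 1 or 3 or siIPMK of experiment 2 or 3. With MMC it was so without control siRNA of experiment 1 or siIPMK of experiment 2 or 3, and HES6 without control siRNA of experiment 1 or siIPMK of experiment 2.

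The HES6 rise with MMC under control siRNA was lost with median scaling, at 0.38 (limma adjusted p = 0.375), in the authors' values (0.0531), with detection on all 12 arrays (0.0519) and with no filter (0.105). The HES2 rise under siIPMK was lost with median scaling (limma adjusted p = 0.0634). Signs turned only for values that had not passed. With median scaling HES1 under MMC and control siRNA was -0.012, and the HES6 difference of MMC changes was 0.0018. Without both siIPMK arrays of experiment 1, MMC with siIPMK gave -0.052 for HES1 and -0.18 for HES5, the differences of MMC changes were -0.094 for HES1 and -0.23 for HES2, and the experiment comparison gave -0.045 for the brighter HEY1 probe and -0.32 for HEYL, as it did in the control siRNA arrays alone.

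Without 1 array, HES1 ran from -0.59 to 0.64 with MMC and control siRNA, from -0.50 to 0.50 with MMC and siIPMK, and from -0.59 to 0.65 in the difference. HES5 ran from -0.50 to 0.88, from -0.86 to 0.76, and from -1.13 to 0.57 in these. In the difference HES2 ran from -0.20 to 0.24, HES6 from -0.13 to 0.042, the brighter HEY1 probe from -0.17 to 0.46 and the dimmer from -0.078 to 0.35. With MMC and siIPMK the brighter HEY1 probe ran from -0.52 to 0.10 and the dimmer from -0.38 to 0.055. The cause was not tested for any of these. Probes near the background, such as HES2, the dimmer HEY1 probe and HES5 with siIPMK, have fold changes that depend on the offset, and with an offset of 50 the dimmer HEY1 probe was at -1.18 and -1.06 with siIPMK.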

Other observations

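The genes that stood with HES1 and HES5 in the comparison of experiment 1 with experiments 2 and 3 were chosen after their values were seen. Of 13830 probes, 13 were higher in experiment 1 by 1 or more on the log2 scale and 3 lower. The highest were FOSB at 3.65 ± 0.16, FOS at 2.75 ± 0.13 and EGR1 at 2.70 ± 0.11, which encode transcription factors known as immediate early genes, induced within minutes by serum, growth factors and stress. An unnamed probe at 2.58 came next, followed by HES5 and HES1. The immediate early genes ATF3, EGR3 and ZFP36 were higher by 1.43 ± 0.15, 1.33 ± 0.20 and 1.09 ± 0.10, and DEPP1, BGN, CPT1C and SLPI by 1.38, 1.21, 1.08 and 1.04. All 12 named probes of these 13 passed at a limma adjusted p of 0.00481 or less. All 4 arrays of experiment 1 lay above the other 8 for 86 probes (0.622%) and below them for 134 (0.969%), and HES1 was among the former. What differed between the experiments was not tested.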
